A study of Mus musculus with 14 samples.

Results

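The 10 genes described here encode inhibitors of the mitogen-activated protein kinase routes, most of them of the route through the kinase ERK. Among them are the dual-specificity phosphatases Dusp1, Dusp2, Dusp4, Dusp5, Dusp6 and Dusp10. The others are the Sprouty proteins Spry1 and Spry2 and the Sprouty-related proteins Spred1 and Spred2. The 10 genes were taken by name from a count table of 27179 genes, matched through their Entrez identifiers. All 10 were found and passed the filter on low counts that left 13075 genes for testing. The table holds bulk RNA sequencing of activated CD4 T cells of C57BL/6 mice in 14 libraries. Naive CD4 cells had been cultured for 3.5 days on bound antibodies to CD3 and CD28, which stimulate the T cell receptor and its co-receptor and were shared by all groups, and were then stained and sorted. The groups differed in culture condition: Th1 (5 libraries, the culture for interferon-γ producing helper cells), TfhA (4 libraries, a follicular helper culture with anti-TGF-β, which blocks the cytokine) and Tfh5 (5 libraries, the follicular helper culture with 5 ng/ml TGF-β). The labels state neither the TGF-β status of the Th1 culture nor the other cytokines of each culture. The sources also do not say whether libraries of a group came from separate animals or cultures, so p-values measure only the spread between these samples. They do not state the sorting gate either.

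When the T cell receptor is engaged, Ras activates the kinases Raf, MEK and ERK in turn, and ERK then drives early response genes. Many of those genes encode brakes on the same route. Dual-specificity phosphatases remove the activating phosphates from ERK, p38 or JNK, with some acting in the nucleus and others in the cytoplasm. Sprouty and Spred proteins act higher up, between receptors, Ras and Raf. The transcripts of such brakes are widely read as a record of past ERK activity, but kinase activity itself was not measured in these libraries.

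Library totals ran from 13390058 to 16108059 counts in Th1, from 8805921 to 13027721 in TfhA and from 9766313 to 13316633 in Tfh5. Every Th1 library was thus deeper than every library of the other groups. Genes with a count numbered 14127 to 14805 in Tfh5 libraries and 14864 to 16143 in the others. The cells matched their label: all 9 CD4 T cell markers had counts, summing to 5416 to 7479 CPM per library, where CPM are library-scaled counts relative to the library total (edgeR, TMM). Markers of other cells were low relative to these. The 5 B cell markers summed to 4.35 to 6.99 CPM in TfhA and to at most 1.71 CPM elsewhere, and Pax5 was at 0 in Th1. The 5 myeloid markers reached at most 3.03 CPM in any library, with Adgre1 at 0 in all groups and Lyz2 at 0 in TfhA and Tfh5. The 4 CD8 and NK cell markers summed to 8.54 to 34.0 CPM, mostly from Cd8b1 (group means of 10.7 to 17.7 CPM), with Ncr1 at 0 throughout. In Th1, Cd8b1 (17.7 CPM) thus stood as high as Dusp6 (17.8 CPM). Cd8a averaged 0.470 CPM in Th1, 1.98 CPM in TfhA and 0.0381 CPM in Tfh5. Mitochondrially encoded genes took 7.29 to 8.54% of counts in Tfh5 and 4.07 to 7.01% in the other libraries. Some libraries often lay at the edge of their group: TfhA replicate 4 (the smallest library, with the mitochondrial share of 4.07%) and Tfh5 replicate 1 each held the lowest value of their group for 7 of the 10 genes, Tfh5 replicate 5 held the highest for 7, and Th1 replicate 2 and TfhA replicate 2 held the highest for 6 each. The part of any of these measures in the results below was not tested, and results that change without one of these libraries are given both ways.

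The feedback genes did not move together. Relative to Th1, both follicular helper cultures had more Dusp6, Spry1, Dusp10 and Dusp2 and less Dusp5, Dusp1 and Dusp4. Between the follicular helper cultures, Dusp4 was 4.03-fold higher and Spry2 3.49-fold lower with TGF-β than with its blockade. In TfhA against Th1, 4 of the 10 genes were higher and 4 lower, where 44.8% of all tested genes passed (23.2% higher and 21.6% lower). In Tfh5 against Th1 the counts were also 4 higher and 4 lower, against 64.6% of all tested genes (31.5% higher, 33.0% lower). In Tfh5 against TfhA, 3 were higher, 3 lower and 4 did not pass, against 57.5% of all tested genes (27.4% higher, 30.1% lower). The share of feedback genes that passed was thus close to the background in Tfh5 against TfhA, and not far above it in Tfh5 against Th1. The 10 genes were chosen with earlier results of these data known, which limits any reading of these shares. Passing means an adjusted p under 0.05 in the two-sided edgeR quasi-likelihood test, with adjustment over all tested genes. The median log2 fold change of the 10 genes was 0.09 in TfhA against Th1 (0.03 over all tested genes), -0.05 in Tfh5 against Th1 (-0.01) and 0.03 in Tfh5 against TfhA (-0.01). The all-gene medians and near-even split are largely set by TMM scaling, which assumes that most genes do not change. A shift shared by most genes could therefore not be seen. Libraries of the groups did not overlap for 8 of the 10 genes in TfhA against Th1 (38.1% of all tested genes), 8 in Tfh5 against Th1 (50.2%) and 4 in Tfh5 against TfhA (44.2%). The comparisons share libraries in pairs, so they are not independent of each other. In bulk RNA, fewer cells that express a gene and less of its RNA per cell cannot be told apart.

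**Figure D1:**
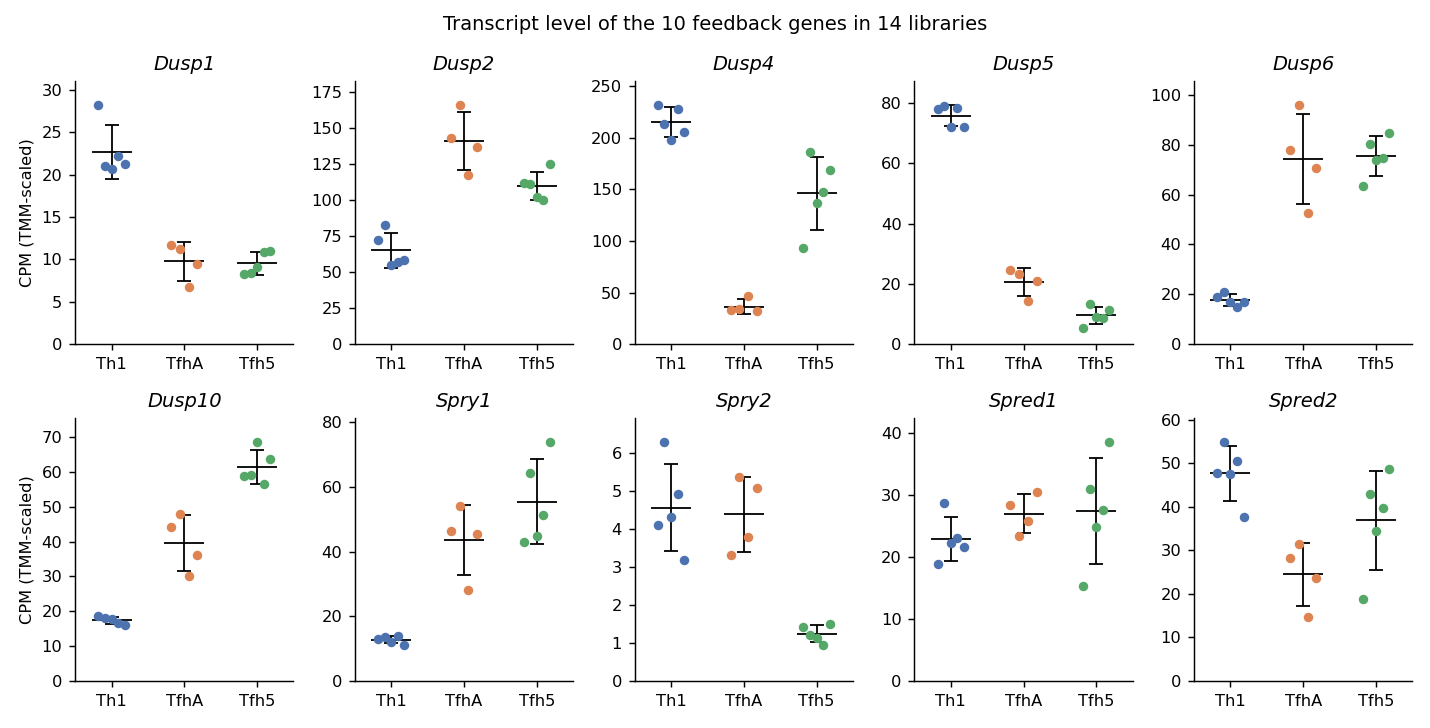
Transcript level (CPM, linear axis from 0) of each gene in every library, with group means and SD as black bars (n = 5 Th1, 4 TfhA, 5 Tfh5). Dusp5 steps down from Th1 to TfhA to Tfh5, Dusp10 steps up, Dusp4 dips in TfhA, and Spry2 is low in Tfh5, with no overlap between Tfh5 and the other groups.

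Dusp4 and Dusp5 had the largest differences among the phosphatases found in the nucleus. Dusp4 (Entrez gene 319520, mm10 chromosome 8, 34807610 to 34819894, plus strand, 4 exons) encodes a phosphatase of ERK, p38 and JNK that ERK signalling induces. It stood at 232, 214, 198, 228 and 205 CPM in Th1 replicates 1 to 5. In TfhA it stood at 32.7, 33.8, 47.1 and 32.1 CPM in replicates 1, 2, 4 and 5, and in Tfh5 at 93.2, 186, 137, 147 and 169 CPM. All TfhA libraries lay below all Tfh5 libraries, which in turn lay below all Th1 libraries. Relative to Th1, Dusp4 fell 5.93-fold in TfhA (log2 fold change -2.57 ± 0.16 SE, adjusted p = 1.80e-12) and 1.47-fold in Tfh5 (-0.56 ± 0.13, adjusted p = 0.000773). The difference between the follicular helper cultures was 2.01 ± 0.15 on the log2 scale (4.03-fold higher in Tfh5, adjusted p = 4.03e-11).

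Dusp5 (Entrez gene 240672, mm10 chromosome 19, 53529145 to 53541809, plus strand, 4 exons) encodes a nuclear phosphatase that is specific for ERK. Its levels were 78.0, 78.9, 71.9, 78.2 and 72 CPM in Th1, 24.5, 23.3, 14.2 and 21.1 CPM in TfhA, and 5.52, 13.2, 9.15, 8.82 and 11.3 CPM in Tfh5. The groups formed a staircase with no overlap, highest in Th1 and lowest in Tfh5. Dusp5 fell 3.64-fold from Th1 to TfhA (log2 fold change -1.86 ± 0.17, adjusted p = 2.17e-09) and 7.88-fold from Th1 to Tfh5 (-2.98 ± 0.17, adjusted p = 5.17e-14). It was 2.17-fold lower in Tfh5 than in TfhA (-1.12 ± 0.18, adjusted p = 6.75e-06). An RNA is annotated antisense to Dusp5 with overlapping exons, and the strand setting of the counting is not given, so its reads cannot be told apart from those of Dusp5.

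Dusp1 (Entrez gene 19252, mm10 chromosome 17, 26505591 to 26508472, minus strand, 4 exons) encodes an early-induced nuclear phosphatase that acts mainly on p38 and JNK. It was measured at 28.2, 21.1, 20.7, 22.2 and 21.2 CPM in Th1, at 11.7, 11.3, 6.71 and 9.44 CPM in TfhA, and at 8.28, 8.36, 9.15, 10.9 and 11 CPM in Tfh5. Th1 libraries lay above all others, while TfhA and Tfh5 overlapped. The gene was 2.30-fold lower in TfhA (log2 fold change -1.20 ± 0.17, adjusted p = 2.26e-06) and 2.37-fold lower in Tfh5 (-1.25 ± 0.16, adjusted p = 1.50e-07) than in Th1. Tfh5 and TfhA were not separated (-0.04, 95% interval -0.40 to 0.31, adjusted p = 0.847).

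Dusp2 (Entrez gene 13537, mm10 chromosome 2, 127336159 to 127338377, plus strand, 4 exons) encodes a nuclear phosphatase induced in activated lymphocytes, and it moved the other way. Its levels were 72.6, 83.1, 55.2, 56.8 and 58.6 CPM in Th1, 143, 166, 117 and 137 CPM in TfhA, and 112, 111, 102, 100.2 and 125 CPM in Tfh5. Every follicular helper library exceeded every Th1 library. Dusp2 was 2.16-fold higher in TfhA (log2 fold change 1.11 ± 0.12, adjusted p = 4.60e-08) and 1.68-fold higher in Tfh5 (0.75 ± 0.11, adjusted p = 3.15e-06) than in Th1. It was 1.28-fold lower in Tfh5 than in TfhA (-0.36 ± 0.12, adjusted p = 0.0126), where 1 TfhA library, replicate 4, lay within the Tfh5 range. Without TfhA replicate 2, the highest, this difference was -0.27 ± 0.12 and did not pass (adjusted p = 0.0741, within 0.000337 to 0.0741 over all settings).

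Dusp6 and Dusp10 encode phosphatases that are not confined to the nucleus, and both were higher in follicular helper culture. Dusp6 (Entrez gene 67603, mm10 chromosome 10, 99263231 to 99267489, plus strand, 3 exons) encodes the cytoplasmic phosphatase specific for ERK, a standard readout of the pathway. It stood at 18.8, 21.1, 17.1, 14.9 and 17.0 CPM in Th1, at 77.7, 95.9, 52.5 and 70.6 CPM in TfhA, and at 63.4, 80.2, 74.0, 74.6 and 84.8 CPM in Tfh5. The Th1 libraries were well below the rest, and the Tfh5 range lay inside that of TfhA. Dusp6 was 4.18-fold higher in TfhA (log2 fold change 2.06 ± 0.14, adjusted p = 1.22e-11) and 4.24-fold higher in Tfh5 (2.08 ± 0.13, adjusted p = 9.21e-13) than in Th1. The difference between Tfh5 and TfhA was 0.02 on the log2 scale (95% interval -0.25 to 0.30, adjusted p = 0.906).

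Dusp10 (Entrez gene 63953, mm10 chromosome 1, 184034381 to 184075636, plus strand, 4 exons) encodes a phosphatase that prefers p38 and JNK over ERK, and so stands apart from ERK feedback in the narrow sense. Its levels were 18.6, 18.1, 17.8, 16.7 and 16.1 CPM in Th1, 44.2, 47.8, 30.2 and 36.2 CPM in TfhA, and 58.9, 59.1, 68.6, 56.4 and 63.7 CPM in Tfh5. The groups rose in that order with no overlap. Dusp10 was 2.27-fold higher in TfhA than in Th1 (log2 fold change 1.19 ± 0.12, adjusted p = 2.19e-08), 3.51-fold higher in Tfh5 than in Th1 (1.81 ± 0.12, adjusted p = 9.21e-13) and 1.55-fold higher in Tfh5 than in TfhA (0.63 ± 0.12, adjusted p = 8.46e-05). Its steps ran against those of Dusp5, which was lowest where Dusp10 was highest.

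The Sprouty genes parted ways. Spry1 (Entrez gene 24063, mm10 chromosome 3, 37639947 to 37644599, plus strand, 3 exons) encodes a membrane-associated inhibitor of Ras and Raf activation that T cell stimulation induces. It was measured at 13.0, 13.4, 12.1, 14 and 11.3 CPM in Th1, at 46.4, 54.0, 28.2 and 45.5 CPM in TfhA, and at 43.1, 64.2, 44.8, 51.3 and 74.0 CPM in Tfh5. Even the lowest follicular helper library, TfhA replicate 4, had more than any Th1 library. Spry1 was 3.42-fold higher in TfhA (log2 fold change 1.77 ± 0.17, adjusted p = 5.46e-09) and 4.35-fold higher in Tfh5 (2.12 ± 0.16, adjusted p = 2.62e-11) than in Th1. Between Tfh5 and TfhA the difference of 0.35 ± 0.16 did not pass (adjusted p = 0.0707, within 0.0232 to 0.304 over all settings). It did pass in 5 of 22 alternative settings, which included leaving out TfhA replicate 2 (0.47 ± 0.17), Tfh5 replicate 1 (0.43 ± 0.16) or Tfh5 replicate 3 (0.42 ± 0.17). A transcript on the opposite strand overlaps exons of Spry1, and the same limit on strand holds as for Dusp5.

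Spry2 (Entrez gene 24064, mm10 chromosome 14, 105891947 to 105896819, minus strand, 2 exons) encodes a close relative of Spry1 and had the lowest level per transcript length of the 10 genes (at most 2.19 CPM per kilobase as a group mean). It stood at 4.11, 6.31, 4.31, 4.92 and 3.20 CPM in Th1, at 3.33, 5.37, 3.79 and 5.09 CPM in TfhA, and at 1.43, 1.22, 1.13, 0.948 and 1.49 CPM in Tfh5. Behind the Tfh5 values were only 10 to 20 counts per library, against 35 to 91 in the other libraries. All Tfh5 libraries lay below the rest, while the TfhA range lay inside that of Th1. Spry2 was 3.49-fold lower in Tfh5 than in TfhA (log2 fold change -1.80 ± 0.29, adjusted p = 7.87e-06) and 3.63-fold lower than in Th1 (-1.86 ± 0.27, adjusted p = 1.72e-06). TfhA and Th1 differed by -0.06 (95% interval -0.59 to 0.47, adjusted p = 0.872).

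The Spred genes, whose proteins hold Raf inactive and recruit the Ras inhibitor neurofibromin, are described here by Spred1 and Spred2, whose largest fitted difference was 1.93-fold. Spred2 (Entrez gene 114716, mm10 chromosome 11, 19924442 to 20024026, plus strand, 6 exons) stood at 47.8, 55, 47.5, 50.5 and 37.7 CPM in Th1, at 28.3, 31.5, 14.7 and 23.7 CPM in TfhA, and at 18.7, 43.0, 34.4, 39.6 and 48.8 CPM in Tfh5. TfhA lay below Th1 in every library, and Tfh5 overlapped both. Spred2 was 1.93-fold lower in TfhA than in Th1 (log2 fold change -0.95 ± 0.21, adjusted p = 0.000559) and 1.5-fold higher in Tfh5 than in TfhA (0.58 ± 0.21, adjusted p = 0.0188). The second difference rested on single libraries: it was 0.41 ± 0.20 without TfhA replicate 4 (adjusted p = 0.0949) and 0.46 ± 0.21 without Tfh5 replicate 5 (adjusted p = 0.0658), within 0.000512 to 0.0949 over all settings. Tfh5 and Th1 differed by -0.37 ± 0.19 (adjusted p = 0.0909, within 0.0178 to 0.265), and this passed without Tfh5 replicate 5 (-0.49 ± 0.20, adjusted p = 0.0328) and with no filter on low counts (-0.39 ± 0.14, adjusted p = 0.0178).

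Spred1 (Entrez gene 114715, mm10 chromosome 2, 117121071 to 117182279, plus strand, 7 exons) was the one gene of the 10 that passed in no comparison. Its levels were 18.9, 28.7, 22.2, 23.0 and 21.7 CPM in Th1, 28.3, 23.4, 25.7 and 30.5 CPM in TfhA, and 15.3, 31.0, 24.9, 27.5 and 38.6 CPM in Tfh5. All groups overlapped, and Tfh5 held both the lowest and the highest library. The log2 fold changes were 0.24 for TfhA against Th1 (95% interval -0.13 to 0.60), 0.27 for Tfh5 against Th1 (-0.08 to 0.61) and 0.03 for Tfh5 against TfhA (-0.34 to 0.40). Without Tfh5 replicate 1, which held the lowest value, Tfh5 exceeded Th1 by 0.42 ± 0.14 (adjusted p = 0.0112, against 0.173 with all libraries, within 0.0112 to 0.576 over all settings).

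**Figure D2:**
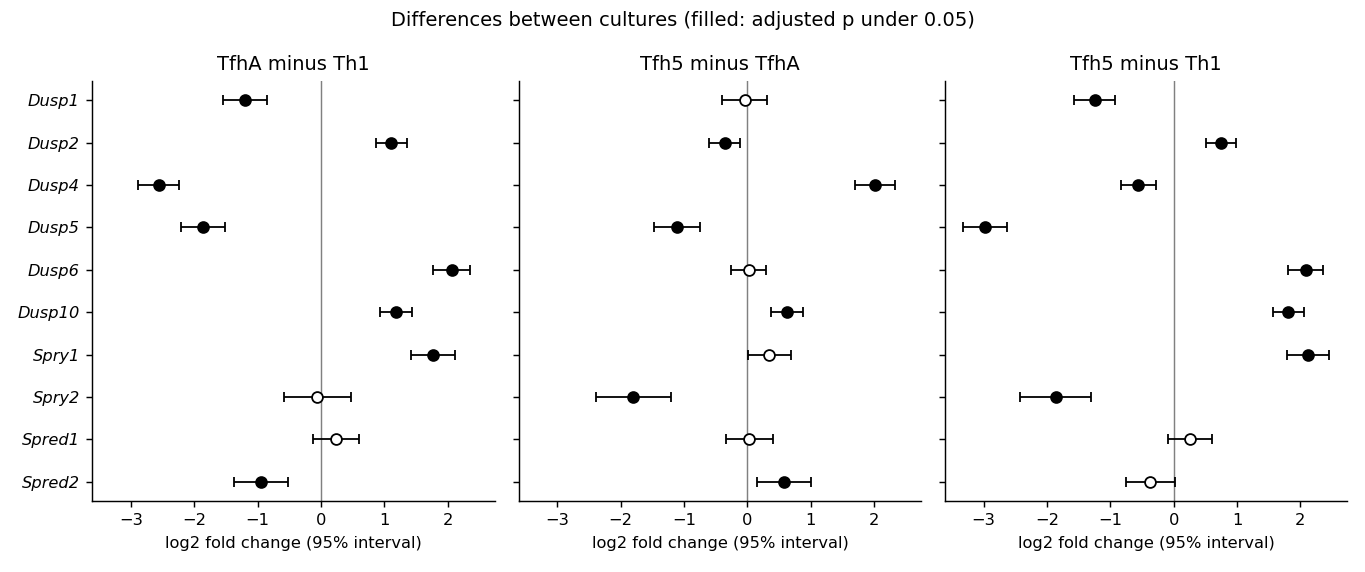
Log2 fold change of each gene with its 95% interval in the 3 comparisons from the edgeR fit, filled where the adjusted p was under 0.05. Against Th1, Dusp6 and Spry1 sit at 1.77 to 2.12 in both follicular helper cultures, and between these cultures Dusp4 (2.01) and Spry2 (-1.80) lie farthest from 0.

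The upstream sequences of 4 of these genes are shown, chosen after the motif search. Dusp1 and Dusp5, lower in both follicular helper cultures than in Th1, are shown because they are the genes with a motif match. Dusp6 and Spry1, higher in both, are shown for contrast as the pair with the largest increases. Dusp4 was lower in both as well, but no upstream sequence of it was used here, and Dusp2 and Dusp10, also higher in both, held no match. Each is the stretch of 250 bases before the RefSeq transcript start in GRCm38.p6 (mm10), 5′ to 3′ on the strand of the gene, with motif matches in capitals. The positions are chr17:26508473-26508722 (minus strand) for Dusp1, chr19:53528895-53529144 (plus strand) for Dusp5, chr10:99262981-99263230 (plus strand) for Dusp6 and chr3:37639697-37639946 (plus strand) for Spry1.
Dusp1: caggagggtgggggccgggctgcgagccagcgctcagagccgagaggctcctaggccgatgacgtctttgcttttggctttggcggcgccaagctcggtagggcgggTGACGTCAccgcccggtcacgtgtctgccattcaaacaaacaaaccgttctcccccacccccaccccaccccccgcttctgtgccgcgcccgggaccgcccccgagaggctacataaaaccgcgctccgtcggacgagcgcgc
Dusp5: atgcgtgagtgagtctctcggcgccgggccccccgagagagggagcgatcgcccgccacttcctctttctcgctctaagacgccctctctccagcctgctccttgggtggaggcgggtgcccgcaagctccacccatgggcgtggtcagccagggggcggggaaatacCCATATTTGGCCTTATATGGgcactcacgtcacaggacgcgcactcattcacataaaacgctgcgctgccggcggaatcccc
Dusp6: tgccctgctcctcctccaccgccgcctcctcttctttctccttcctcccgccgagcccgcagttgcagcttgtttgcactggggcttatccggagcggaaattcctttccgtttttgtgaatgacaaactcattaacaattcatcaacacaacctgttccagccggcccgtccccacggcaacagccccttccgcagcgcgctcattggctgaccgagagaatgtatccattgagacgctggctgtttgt
Spry1: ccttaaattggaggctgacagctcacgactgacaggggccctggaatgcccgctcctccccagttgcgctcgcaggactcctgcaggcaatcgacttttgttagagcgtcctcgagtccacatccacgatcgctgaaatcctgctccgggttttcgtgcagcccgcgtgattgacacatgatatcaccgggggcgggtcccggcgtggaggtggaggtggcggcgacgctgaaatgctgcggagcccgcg
Both strands were searched for 5 motifs in 32851 RefSeq promoters of this length, which held a sequence for 9 of the 10 genes, all but Dusp4. The cyclic AMP response element TGACGTCA, the capitals of Dusp1, was in the Dusp1 sequence at bases 143 to 136 before the start and in 1.55% of all promoters. SRF and ERK-regulated ternary complex factors bind the serum response element as a whole. Only its core was searched for, which is CC, a run of A or T, and GG. This core was found at adjoining positions in Dusp5, at bases 82 to 73 and 72 to 63, and in 1.47% of all promoters. Those 20 letters are the capitals of Dusp5. The AP-1 site TGANTCA (6.75% of all promoters), the ETS site CCGGAAG (6.91%) and the SMAD palindrome GTCTAGAC (0.167%) were in none of the 9 sequences, which says only that these letters are not in this window. No 2 matches overlapped in these sequences.

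Levels can be set against each other between genes only per transcript length, here as CPM per kilobase of the longest transcript with a RefSeq match. On that scale the 6 Dusp genes described above exchanged places while their sums overlapped between groups. The sum over the 6 Dusp genes was 174 ± 13.5 CPM per kilobase in Th1 (158 to 189), 155 ± 22.2 in TfhA (128 to 182) and 179 ± 19.9 in Tfh5 (153 to 202), given as mean ± SD and range. In Th1, Dusp4 made up 45.3% ± 2.28 of it, Dusp2 23.1% ± 2.81 and Dusp5 17.7% ± 0.730. In TfhA, Dusp2 made up 56.5% ± 0.780 and Dusp4 8.88% ± 3.02. In Tfh5, Dusp2 (38.2% ± 4.0) and Dusp4 (29.5% ± 4.59) were both large, with ranges of 35.0 to 45.1% and 22.2 to 34.6%, so that Dusp2 led in every library. Dusp5 held 5.40% ± 0.747 in TfhA and 2.13% ± 0.457 in Tfh5. Dusp6 made up 3.66% ± 0.367 in Th1, 17.0% ± 1.78 in TfhA and 15.1% ± 0.384 in Tfh5. These shares are descriptions and were not tested. Other Dusp genes are not in the sum, and some exceeded genes that are. Dusp22 stood at 14.5 ± 1.14 CPM per kilobase in Th1, against 6.35 ± 0.820 for Dusp6. It stood at 5.80 ± 0.364 in TfhA and 5.79 ± 0.922 in Tfh5.

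Over Spry1, Spry2, Spred1 and Spred2 the summed level was 27.9 ± 3.54 CPM per kilobase in Th1, 32.7 ± 7.11 in TfhA and 40.5 ± 10.4 in Tfh5, with overlapping ranges, below that of the 6 Dusp genes in each library. Spred2 led these 4 genes in Th1 with 60.0% ± 1.59 of their sum. Their relative Spred3 is not in the sum, and at 17.1 ± 1.38 CPM per kilobase in Th1, 4.57 ± 0.594 in TfhA and 10.7 ± 1.44 in Tfh5 it stood beside Spred2 (16.7 ± 2.23, 8.60 ± 2.56 and 12.9 ± 4.0). Spry1 led in both follicular helper cultures, with 53.3% ± 2.16 in TfhA and 55.7% ± 4.87 in Tfh5, against 18.5% ± 1.27 in Th1. Spry2 made up 7.76% ± 0.978 in Th1, 6.57% ± 1.46 in TfhA and 1.56% ± 0.555 in Tfh5.

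**Figure D3:**
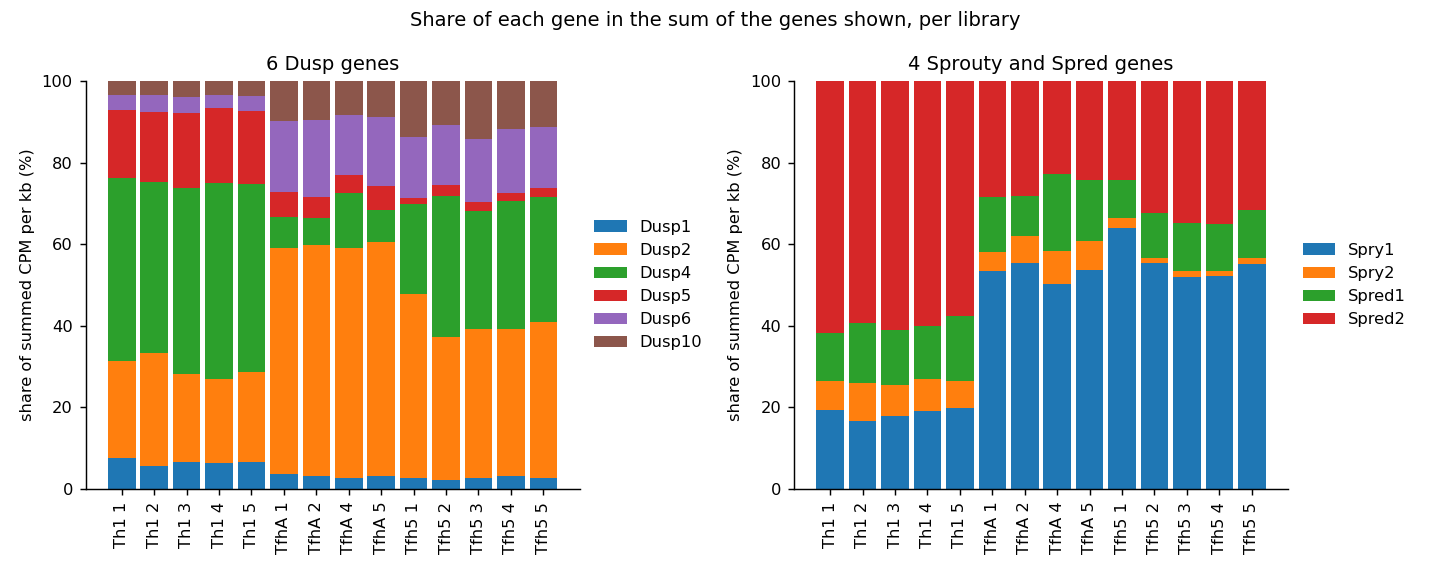
Share of each gene in the summed level of the genes shown, 6 Dusp genes on the left and 4 Sprouty and Spred genes on the right (CPM per kilobase, in percent), one bar per library. Other members of these families are not in the sums. Dusp4 (45.3% on average) leads in the Th1 libraries and Dusp2 (56.5%) in the TfhA libraries, and among the 4 Sprouty and Spred genes Spred2 leads in Th1 and Spry1 in both follicular helper cultures.

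Of 10 relatives in the same families that are not among the genes above, 7 could be tested. Spred3, the third Spred gene, had the same order of groups as Dusp4, with 69.5 ± 5.59 CPM in Th1, 18.5 ± 2.41 in TfhA and 43.5 ± 5.85 in Tfh5 (2.34-fold higher in Tfh5 than in TfhA, adjusted p = 4.66e-09). Dusp22, which acts on the JNK route and on the kinase Lck, was lower in TfhA (2.49-fold) and Tfh5 (2.5-fold) than in Th1. Dusp16, a JNK and p38 phosphatase, was 1.63-fold higher in Tfh5 than in TfhA (48.5 ± 5.65 against 29.6 ± 2.37 CPM). In counts, 1 was higher and 3 lower in TfhA against Th1, 3 and 3 in Tfh5 against TfhA, and 1 and 4 in Tfh5 against Th1 (0 higher without Th1 replicate 4, 2 with the GC correction). Over all tested genes, 44.8% passed in TfhA against Th1, 57.5% in Tfh5 against TfhA and 64.6% in Tfh5 against Th1. Dusp8, Dusp9 and Spry3 were too low to test, with at most 14 counts in any library.

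In the cascade itself, Rasgrp1 and Ksr1 had the largest fold changes of Tfh5 among its called genes with at least 5 CPM in a group. Rasgrp1 encodes the exchange factor that activates Ras below the T cell receptor, and it was 3.28-fold lower in Tfh5 than in TfhA (log2 fold change -1.71 ± 0.10, adjusted p = 4.66e-13) and 2.83-fold lower than in Th1. Ksr1, a scaffold of Raf, MEK and ERK, was 4.16-fold lower in Tfh5 than in TfhA (adjusted p = 5.89e-11) and 3.62-fold lower than in Th1. Of the 21 cascade genes, 9 were higher and 5 lower in Tfh5 against TfhA, with a median log2 fold change of 0.15. In TfhA against Th1, 2 were higher and 6 lower (median -0.06), and Lat, the adaptor of the T cell receptor, was among the higher ones (1.64-fold). In Tfh5 against Th1, 6 were higher and 7 lower (median -0.08). The shares of all tested genes that passed were 57.5% in Tfh5 against TfhA, 44.8% in TfhA against Th1 and 64.6% in Tfh5 against Th1.

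Other inhibitors of Ras and ERK were measured too. Rasa3 and Rasa1, GTPase-activating proteins that switch Ras or its relatives off, rose in steps from Th1 to TfhA to Tfh5, as Dusp10 did. Rasa3 was 3.94-fold higher in TfhA than in Th1, 9.30-fold higher in Tfh5 than in Th1 (log2 fold change 3.22 ± 0.11, adjusted p = 5.87e-18) and 2.36-fold higher in Tfh5 than in TfhA. Rasa1 was 2.23-fold, 6.60-fold and 2.96-fold higher in the same comparisons. Of these 14 genes, 6 were higher and 5 lower in TfhA against Th1 (median log2 fold change 0.12), 7 and 5 in Tfh5 against Th1 (0.42), and 6 and 1 in Tfh5 against TfhA (0.28). Among all tested genes, 44.8%, 64.6% and 57.5% passed in these comparisons, in the same order.

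The genes that ERK induces early also moved in both directions. Etv5, an ETS factor regarded with Dusp6 and Spry genes as an ERK target, ran opposite to Dusp6: it was 15.3-fold lower in TfhA (log2 fold change -3.94 ± 0.17, adjusted p = 2.77e-15) and 20.3-fold lower in Tfh5 (-4.34 ± 0.16, adjusted p = 1.38e-17) than in Th1. Egr2 was 5.07-fold higher in TfhA than in Th1, and Fos 5.97-fold higher in Tfh5 than in Th1. Of 15 such genes, 6 were higher and 5 lower in TfhA against Th1 (median log2 fold change 0.28), and 9 higher and 6 lower in Tfh5 against Th1 (0.92). In Tfh5 against TfhA 4 were higher and 4 lower (0.12), among them Phlda1 (2.65-fold higher) and Etv4 (2.83-fold lower). Among all tested genes, 44.8% passed in TfhA against Th1, 64.6% in Tfh5 against Th1 and 57.5% in Tfh5 against TfhA.

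Of 9 genes for substrates of ERK, none passed in TfhA against Th1 by the edgeR test (0 higher and 1 lower at an unadjusted p under 0.05, and 0 by DESeq2), with a median log2 fold change of 0.02. That count was not stable: alternatives called up to 3 higher (with the GC correction) and up to 1 lower (without Th1 replicate 5 or TfhA replicate 2, or with no filter), and 1 higher without Tfh5 replicate 1. In Tfh5, 5 were higher and 1 lower than in TfhA, and 5 higher and 2 lower than in Th1. Elk1, Elk3 and Elk4, which encode the ternary complex factors, were among the higher ones: Elk1 2.24-fold and Elk3 1.93-fold above TfhA, and Elk4 2.08-fold and Elk3 2.04-fold above Th1. Elk4 varied widely in Tfh5 (34.4 to 146 CPM) and overlapped Th1 (45.5 to 58.7 CPM). In the p38 and JNK cascade, on which Dusp1 and Dusp10 act, 7 of 13 genes were higher and 2 lower in TfhA against Th1, 5 and 4 in Tfh5 against Th1, and 3 and 5 in Tfh5 against TfhA. Without TfhA replicate 2, 4 were lower in TfhA against Th1. For the substrates and this cascade alike, the all-gene shares that passed were 44.8% (TfhA against Th1), 64.6% (Tfh5 against Th1) and 57.5% (Tfh5 against TfhA). The p38-activated kinase gene Mapkapk2 was 2.34-fold lower in TfhA and 2.83-fold lower in Tfh5 than in Th1, while Mapk8, which encodes JNK1, was 2.81-fold higher in Tfh5 than in Th1. Mapk9, for JNK2, was 2.21-fold higher in Tfh5 than in TfhA, and the low Mapk12 was 5.28-fold lower there and 2.25-fold higher in TfhA than in Th1.

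**Figure D4:**
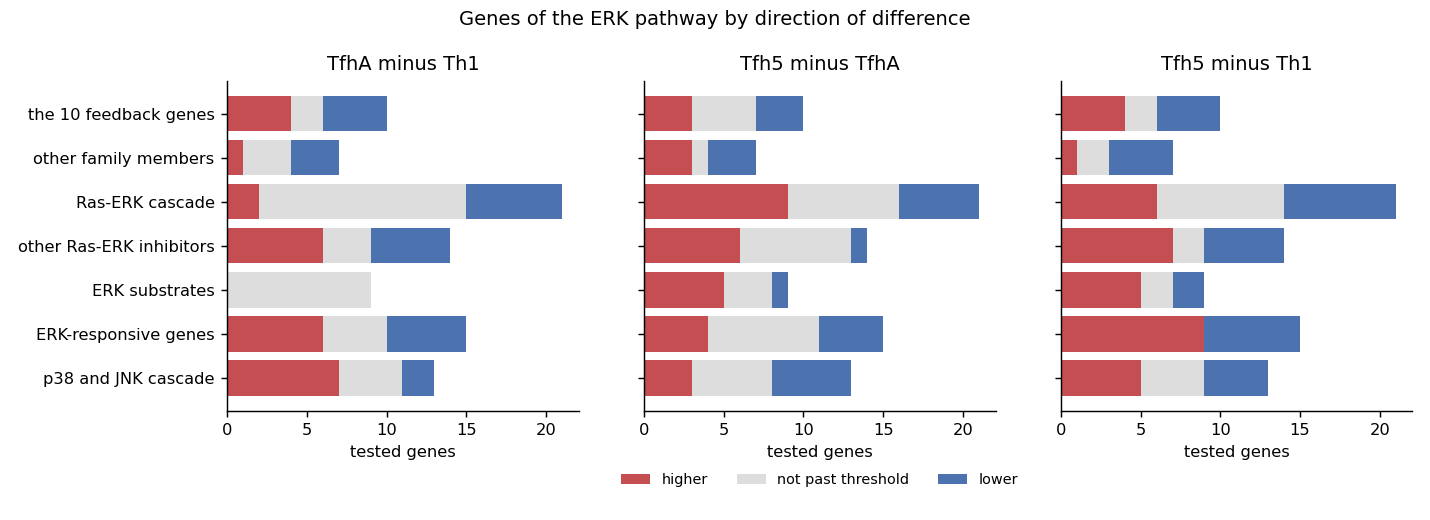
Number of tested genes of each list that were higher, lower or not past the threshold in the 3 comparisons. The 10 feedback genes split evenly in each comparison (3 and 3 in Tfh5 against TfhA, 4 and 4 in both comparisons with Th1), and none of the 9 ERK substrate genes passed in TfhA against Th1, a count that reached 3 under an alternative setting. All tested genes also split nearly evenly, which the TMM scaling largely sets. Of them, 27.4% were higher and 30.1% lower in Tfh5 against TfhA. The shares were 23.2% and 21.6% in TfhA against Th1, and 31.5% and 33.0% in Tfh5 against Th1.

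The genes most like 9 of the feedback genes were sought (Spry2, under 5 CPM in every group mean, was left out) among 10074 tested genes with at least 5 CPM in a group, by the root mean square difference of log2 CPM over the 14 libraries after centring each gene on its mean. The closest match of all was Dgka, the diacylglycerol kinase that limits Ras activation, to Dusp10, at 0.12 on the log2 scale, followed for Dusp10 by the costimulatory receptor gene Cd27 (0.13). Spry1 was nearest to Egr1 (0.16), an early response factor, with mean levels of 70.2, 211 and 274 CPM in Th1, TfhA and Tfh5, and then to the nucleoside transporter gene Slc29a1 (0.21). Dusp6 was nearest to Rgs16 (0.21), a regulator of G-protein signalling, and the integrin gene Itga6 (0.21). Dusp5 was nearest to Hilpda (0.24), a lipid droplet protein gene induced by hypoxia, and to the repressor gene Bhlhe40 (0.29), which stood at 1235, 374 and 191 CPM. Dusp4 was nearest to Timp1 (0.30), an inhibitor of metalloproteinases with 304, 64.9 and 251 CPM, and Sema4f (0.33). Dusp2 was nearest to Lcp2 (0.16), the adaptor SLP-76, and the proton channel gene Hvcn1 (0.18), and Dusp1 to Yif1b (0.14) and Ppard (0.14). Spred1 was nearest to Foxj3 (0.14) and Fan1 (0.17), and Spred2 to Sipa1l3 (0.23) and Bag3 (0.26). These distances are descriptions over libraries that fall into 3 groups, and genes with the same order of group means come out close.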

How the data were processed

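Bulk RNA was sequenced from 14 libraries made from 100 ng RNA with the Lexogen SENSE mRNA kit, per the labels' protocols. The files deposited by the authors hold unnormalized counts for Entrez genes. Tools named in the submitters' processing notes are featureCounts 1.6.4 and STAR 2.7.2b, with mm10 as the build. No source used here gives the annotation, strand or multi-mapping settings. The 14 single-library files were identical with the series table, and 0 columns belonged to other samples. Of 27179 genes, 25275 had a RefSeq symbol (GRCm38.p6). Genes with none held 1.91% of counts. Lengths and GC content came from GENCODE M21 transcripts.

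Counts of all libraries entered one edgeR 4.0.16 quasi-likelihood fit of group means (R 4.3.3, limma 3.58.1), with filterByExpr, TMM scaling and Benjamini-Hochberg adjustment over 13075 genes. The fit was also run on simulated counts in which a small set of genes was changed, in Tfh5 only. That simulation does not cover data in which as many genes differ as here. SE is the log2 fold change divided by the square root of F, and log2 CPM carry a prior count of 2. The common coefficient of variation between replicates was 14.2%, and replicate pairs differed by more than sampling noise (chi-square per degree of freedom 4.15 to 30.6). Groups and replicate numbers came from the sample titles. Alternatives were RLE and upper quartile scaling, no filter, DESeq2 1.42.0, a replicate block, fits of the groups compared, a GC correction and leaving out libraries.

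The feedback genes and the pathway and marker lists were chosen with earlier results of these data known. Named genes are all 10 feedback genes, up to 2 genes per pathway list and comparison that passed, taken by size of log2 fold change where the higher group reached 5 CPM, and the 2 genes nearest in pattern to each of the 9 feedback genes that reached 5 CPM in a group (all but Spry2). Pathway genes beyond that rule (Dusp8, Dusp9 and Spry3) were named for being untested. A gene that this rule names is not reported here.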

Additional observations from a re-analysis of the deposited data

Results flagged for a closer look

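In 2 of the 30 sets of values (each of the 10 genes in each group), 1 library lay apart from the others by Dixon's test, which chance does for about 1 set in 20. Dusp1 stood at 28.2 CPM in Th1 replicate 1, against 20.7 to 22.2 CPM in the other Th1 libraries. Dusp4 stood at 47.1 CPM in TfhA replicate 4, against 32.1 to 33.8 CPM in the other TfhA libraries, and both values lay on the same side of the compared groups as the rest of their group.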

How the results depend on the processing

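Over 22 alternatives, the 10 feedback genes gave 660 log2 fold changes, of which 648 kept their side of the threshold and, where they passed, their direction. The exceptions were 3 calls lost and 9 gained. The text above gives them for Dusp2, Spred1, Spred2 and Spry1 with 1 library left out. Spry1 also passed in Tfh5 against TfhA with no filter (adjusted p = 0.0305) and with the replicate block (0.0368), and Spred1 in Tfh5 against Th1 without TfhA replicate 4 and Tfh5 replicate 1 together (0.0123), an alternative chosen after seeing the data. The cause was not tested. Counts of feedback genes that passed stayed between 2 and 4 higher and 2 and 3 lower in Tfh5 against TfhA, at 4 and 4 in TfhA against Th1, and between 4 and 5 each in Tfh5 against Th1. The labels do not say what replicate numbers stand for, and the data do not settle whether libraries are paired by number. Same-numbered libraries of different groups correlated at -0.05 to 0.16 in their deviations, 1 of 13 pairs above 0.1. Of 14 libraries, 5 correlated best with their own number, but the count expected without pairing was not worked out. Differently numbered libraries of different groups ranged wider, from -0.37 to 0.33, so some deviations were shared across groups. The source of that was not tested. With the replicate block, 4 feedback genes were higher and 3 lower in Tfh5 against TfhA. The GC correction covered 90.8% of tested genes. Low counts limit Spry2, with 10 to 20 per Tfh5 library, against 35 in TfhA replicate 4, the smallest library.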
